A study of Mus musculus with 6 samples.

Results

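Interferon-high cells were 658 of 12139 kept cells from the inguinal lymph nodes of 4 mice. They were chosen by their own transcripts. A cell was counted as interferon-high when at least 4 of 7 interferon-stimulated genes (Ifit1, Ifit2, Ifit3, Ifit3b, Rsad2, Oasl1 and Cxcl10) had a UMI, a count of 1 captured mRNA molecule. It also had at least 1 UMI of Csf1r, the receptor for the growth factor CSF1 on monocytes and macrophages, and no UMI of Nos2 or Saa3, which mark inflammatory macrophages. Unimmunized mouse 1 gave 99 of the interferon-high cells, unimmunized mouse 2 gave 19, immunized mouse 1 gave 243 and immunized mouse 2 gave 297. The comparison cells were the 5701 Csf1r-positive kept cells with a UMI of 0 or 1 of the same 7 genes. They were not limited on Nos2 and Saa3, and 774 of 873, 189 of 210, 1535 of 1960 and 1734 of 2658 of them, in unimmunized mice 1 and 2 and immunized mice 1 and 2, had no UMI of either. The 10 genes of this gate are described below and were never tested between the kinds of cell.

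All mice were CD169Tom animals, in which Cre driven by Siglec1 (encoding CD169) switches on tdTomato, so that past Siglec1 use leaves a lasting label that daughter cells inherit. Cells high for CD11b and positive for tdTomato were sorted from the nodes of 2 unimmunized mice and of 2 mice taken on day 9 after immunization against hen egg lysozyme (HEL). The labels name HEL alone. The study's methods give HEL-OVA, a conjugate, in Sigma Adjuvant System for mice that received transferred cells, and do not say whether the mice used here received that conjugate or an adjuvant. A hashtag antibody marked the cells of every animal, and the pool was loaded on 2 captures for CITE-seq, in which mRNA and DNA-tagged antibodies are counted in the same cells. The ages of the mice are not given in the labels. The reporter records past use of Siglec1 and does not separate macrophages from monocyte-derived cells, and the 2 mice of a condition are the only replicates. Of 18662 barcodes, 1242 shared their sequence with a barcode of the other capture (621 sequences) and were left out, because the hashtag counts did not carry the capture number.

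The summed libraries of interferon-high cells held 968896, 197933, 2927938 and 4434419 UMIs in unimmunized mice 1 and 2 and immunized mice 1 and 2. Their median depth per cell was 8727, 9910, 10914 and 13679 UMIs in the same order. Comparison cells had medians of 7317, 7630, 10348 and 12837 UMIs, so the interferon-high cells were slightly deeper in each mouse, and both kinds of cell were deeper in the immunized mice. The median share of mitochondrial UMIs was 2.33%, 1.91%, 3.11% and 3.18% in interferon-high cells. It was 3.22%, 2.41%, 3.39% and 3.84% in comparison cells, higher in each mouse. Levels below are counts of a gene per 1000000 UMIs (CPM) in the summed cells of 1 mouse, always in the order unimmunized 1, unimmunized 2, immunized 1 and immunized 2.

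Type I and type III interferons bind receptors that activate STAT proteins, which join IRF9 to form a complex that binds the interferon-stimulated response element of target promoters. Interferon-gamma signals through its own receptor and induces a partly shared set of genes. The products of these genes block viral replication, sense foreign nucleic acid and limit the signal itself. Ifit1, Ifit2, Ifit3 and Ifit3b encode proteins that bind viral RNA or proteins, Rsad2 encodes viperin, an antiviral enzyme, Oasl1 restrains the translation of Irf7, and Cxcl10 attracts T cells through CXCR3.

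Promoter sequence around the core of this element is shown for the gate genes that hold a match and for Isg15, the largest of the named rises outside the gate, because these genes were high in the same cells. The core was searched as GAAANNGAAA on either strand in the 250 bases before each RefSeq start (GRCm38.p6). The capitals mark the match, and TTTCNNTTTC is the same core read on the other strand.
Ifit1 (chr19:34640775-34640804, plus strand): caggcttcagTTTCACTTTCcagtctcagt
Ifit1, a further match nearer the start (chr19:34640794-34640823, plus strand): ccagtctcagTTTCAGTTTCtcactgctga
Ifit3 (chr19:34583363-34583392, plus strand): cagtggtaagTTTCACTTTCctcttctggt
Ifit3b (chr19:34607759-34607788, plus strand): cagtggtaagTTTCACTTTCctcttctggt
Rsad2 (chr12:26456553-26456582, minus strand): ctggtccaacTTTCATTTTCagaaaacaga
Cxcl10 (chr5:92349083-92349112, minus strand): tcacgctttgGAAAGTGAAActtacctcac
Isg15 (chr4:156200877-156200906, minus strand): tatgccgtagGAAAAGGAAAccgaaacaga

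The Ifit3 and Ifit3b windows were identical over the 30 bases shown, and the reads of these near-identical genes may be split between them, so their separate values are uncertain. In Isg15 the core matched 3 times in overlapping positions, of which the farthest from the start is shown. Ifit3 and Ifit3b each held a further match nearer the start, which is not shown. The genes lie on the same build at chr19:34640871-34650009 (Ifit1), chr19:34583531-34588731 (Ifit3), chr19:34607970-34613401 (Ifit3b), chr12:26442746-26456452 (Rsad2), chr5:92346638-92348889 (Cxcl10) and chr4:156199424-156200818 (Isg15), and every window lies upstream of the RefSeq start. Ifit2 and Oasl1 had no match of these letters in their windows. By gene, 5 of the 7 interferon genes of the gate held the core in at least 1 promoter, against 936 of 27025 genes in the RefSeq table (3.46%). The core occurred in 978 of all 32851 promoters (2.98%). It was found for 48 of the 245 matched genes that passed the test as higher in interferon-high cells (19.6%) and for 263 of the 8205 matched genes tested and not called (3.21%). Among lists, 17 of 46 matched antiviral effectors, 10 of 11 interferon-gamma GTPases, 3 of 17 MHC class I genes and 0 of 11 classical monocyte genes held it. It was also held by 7 of 16 nucleic acid sensors and 2 of 13 interferon signalling factors. The interferon genes themselves, hardly detected in these cells, held it in 11 of 20. Of the 10 largest rises 9 were matched and 5 held it, and Irf7 and Cxcl9 had no match. A match describes letters in a window and does not show that a factor binds there.

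The gate genes are given as a description of the cells that were chosen. Ifit1 was at 373, 369, 409.5 and 307 CPM in interferon-high cells, and at 6.23, 7.28, 7.42 and 7.19 CPM in comparison cells. Rsad2 was at 255, 278, 157 and 104 CPM, and at 7.24, 8.49, 4.38 and 2.72 CPM in comparison cells. Cxcl10 was at 555, 1329, 942 and 803 CPM, and the comparison cells held 28.8, 27.9, 119 and 261 CPM. Within the interferon-high cells Rsad2 was lower in both immunized mice than in either unimmunized mouse, whereas the order of Ifit1 and Cxcl10 did not follow immunization. The cells were chosen on these same genes and were deeper in the immunized mice. The part of the gate and of depth in these orders was not tested. Comparison cells of immunized mice held more Cxcl10 than those of unimmunized mice. Csf1r, required of both kinds, was at 458, 485, 487 and 414 CPM against 414, 484, 494 and 496 CPM. Of the markers that named these cells, Ifit1, Ifit2, Ifit3, Rsad2 and Cxcl10 had a UMI in 88.3%, 85.6%, 87.1%, 64.7% and 75.4% of the cells.

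As a check on free RNA, B cells were taken as kept cells without Csf1r and with at least 2 of Cd79a, Cd79b and Ms4a1. None of these 274 cells had 4 or more of the 7 genes, which allows a share of up to 1.09%, at a median of 4312 UMIs against 11919 in interferon-high cells. Ifit1 had a UMI in 4.38% of the B cells. It had one in 5.75% of the comparison cells, which were limited to 1 gate gene by their rule and were deeper (median 11062 UMIs), so these shares were not compared. This limit and the intervals below cover counting error only.

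The number of gate genes detected is given as a description of the gate. Among Csf1r-positive cells without Nos2 or Saa3, 2555 had none of the 7 genes, 1677 had 1, 814 had 2, 423 had 3, 249 had 4, 166 had 5, 148 had 6 and 95 had all 7. The fall was not steady in each mouse, and from 3 to 7 genes unimmunized mouse 2 had 10, 3, 7, 3 and 6 cells and unimmunized mouse 1 had 39, 35, 21, 27 and 16. The 249 cells just inside the gate and the 423 just outside it therefore outnumber the cells with 6 or 7. Isg15, a ubiquitin-like protein attached to viral and host proteins, was at 249, 428, 413 and 441 CPM in the cells with 3 gate genes of the 4 mice and at 770, 617, 648 and 686 CPM in those with 4. The step was widest in unimmunized mouse 1. Whether the gate cut a range or met a separate type was not tested. Across the whole range Isg15 went from 72.4 CPM with no gate gene to 2231 CPM with all 7. Over the same cells Irf7, the factor that amplifies interferon production, went from 117 to 999 CPM, both pooled over the mice, and both were higher with 7 gate genes than with none in each mouse. H2-Ab1, an MHC class II chain, went from 6075 to 6277, from 7316 to 8069, from 8935 to 8402 and from 10577 to 8568 CPM in the 4 mice, with no shared direction.

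**Figure D1:**
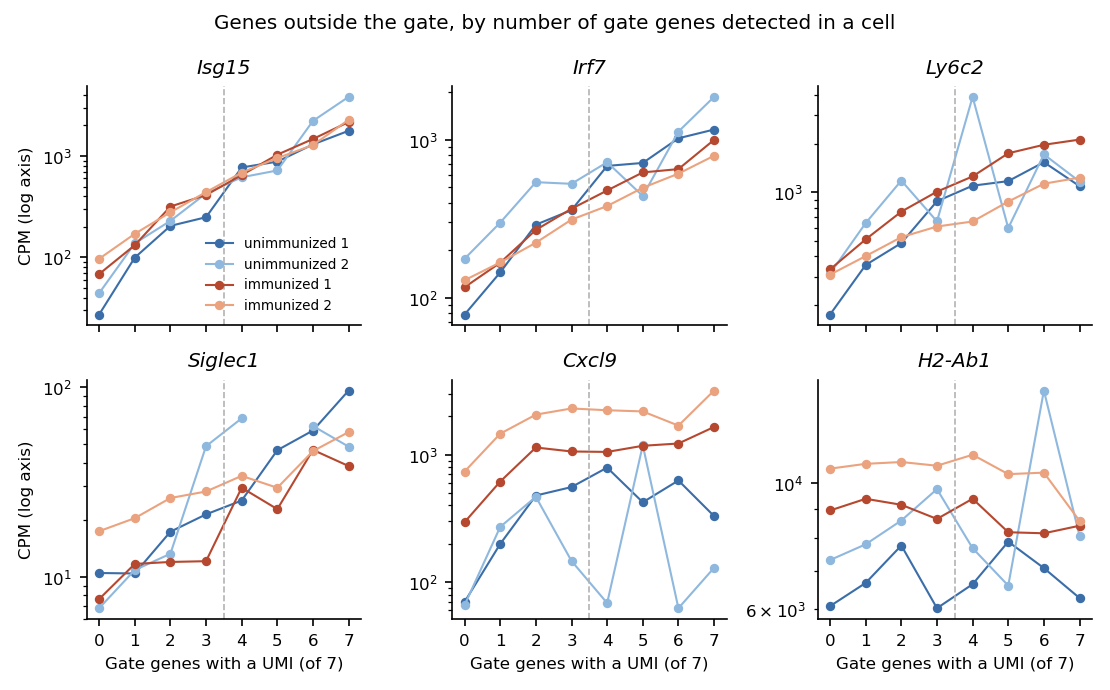
Levels in CPM (log axis) of 6 genes outside the gate against the number of the 7 gate genes with a UMI, in Csf1r-positive cells without Nos2 or Saa3, with 1 line for each mouse and a dashed line at the gate. Isg15 climbed with the number of gate genes in each mouse, Cxcl9 was higher in the immunized mice at 0 to 4 gate genes, and the points of unimmunized mouse 2 above the gate rest on 3 to 7 cells each.

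Interferon-high cells were present in all 4 mice. They made up 3.501% of kept cells in unimmunized mouse 1 (99 of 2828, exact 95% interval 2.85 to 4.25), 3.54% in unimmunized mouse 2 (19 of 537, 2.14 to 5.47), 5.997% in immunized mouse 1 (243 of 4052, 5.29 to 6.77) and 6.29% in immunized mouse 2 (297 of 4722, 5.61 to 7.02). The means were 3.52% ± 0.026 (SD, n = 2) and 6.14% ± 0.207 (SD, n = 2), and the difference of 2.62 percentage points had an exact two-sided permutation p of 0.333, the smallest that 2 mice against 2 can give. Both immunized mice lay above both unimmunized mice.

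The share of Csf1r-positive cells moved in the same direction, and was 39.5% and 50.3% of kept cells in the unimmunized mice and 70.1% and 89.96% in the immunized mice. Among Csf1r-positive cells alone, interferon-high cells were 8.86%, 7.04%, 8.55% and 6.99%, and the groups overlapped (7.95% ± 1.29 and 7.77% ± 1.10, SD, n = 2 each, exact permutation p = 0.667). On this denominator the order of the conditions varied with the gate. With a gate of 3 genes, and without the limit on Nos2 and Saa3, both immunized mice lay above both unimmunized mice. With a gate of 5 genes they lay below (5.73%, 5.93%, 5.59% and 4.00%). Depth also moved with immunization. After each cell was thinned to 3000 UMIs, which left out 551, 91, 288 and 119 shallower cells, the shares of kept cells were 1.32%, 1.57%, 2.13% and 1.30% and overlapped (exact permutation p = 1). The shares of Csf1r-positive cells were then 4.43%, 3.76%, 3.88% and 1.90%, with immunized mouse 2 the lowest.

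**Figure D2:**
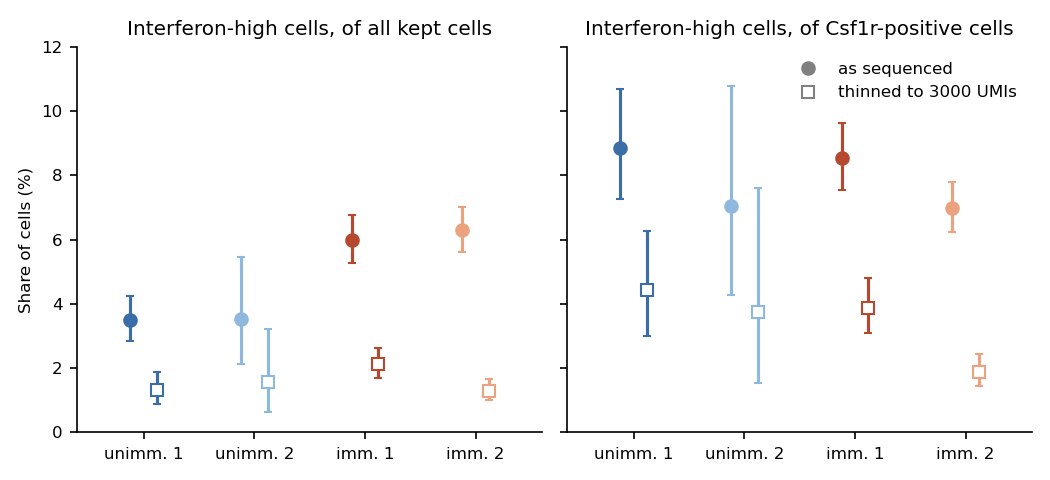
Share of interferon-high cells (%) among all kept cells (left) and among Csf1r-positive kept cells (right) in each mouse, with exact binomial 95% intervals for counting error. Filled circles are the cells as sequenced. Open squares are only the cells with at least 3000 UMIs, each thinned to 3000 UMIs. The immunized mice lie above the unimmunized mice only among all kept cells at full depth.

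The gate left out cells with both an interferon and an inflammatory macrophage signature. Without the limit on Nos2 and Saa3, 945 cells met the other conditions, so that limit removed 287 cells, and the shares of kept cells were then 4.38% ± 0.648 and 9.19% ± 0.426 (SD, n = 2 each, exact permutation p = 0.333). This alternative was added after the data had been seen. A further 40 kept cells had at least 4 gate genes but no Csf1r UMI.

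Beside the Csf1r that the gate required of all of them, most interferon-high cells carried a further monocyte or macrophage transcript. Cells with a UMI of Ly6c2, the antigen of classical monocytes, and with at most 1 of the 3 complement genes C1qa, C1qb and C1qc were 64.6%, 57.9%, 58.4% and 45.5% of interferon-high cells, against 24.1%, 33.3%, 38.7% and 39.5% of comparison cells. The interferon-high cells had the higher share in each mouse. Cells with at least 2 of the C1q genes, which tissue macrophages express, were 18.2%, 21.1%, 31.3% and 50.8% of interferon-high cells and 21.8%, 21.0%, 28.5% and 45.9% of comparison cells, so at full depth the C1q-bearing share was near that of the comparison cells, and it was higher in both immunized mice in both kinds. Cells with neither signature were 17.2%, 21.1%, 10.3% and 3.70% of interferon-high cells against 54.2%, 45.7%, 32.8% and 14.5% of comparison cells. At 3000 UMIs per cell only 30, 7, 80 and 60 cells still met the gate, and 60.0%, 28.6%, 71.3% and 68.3% of them were of the Ly6c2 class, against 25.7%, 36.6%, 38.2% and 34.3% of comparison cells, so that unimmunized mouse 2, with 7 cells, had the lower share in interferon-high cells. The C1q-bearing shares were then 6.67%, 28.6%, 12.5% and 21.7% of interferon-high cells against 12.2%, 14.3%, 19.5% and 39.8% of comparison cells. They were lower in interferon-high cells in 3 of 4 mice, and overlapped between the conditions in interferon-high cells. Csf1r was required of both kinds of cell, and in immunized mouse 2 more interferon-high cells were C1q-bearing than of the Ly6c2 class at full depth, but fewer at 3000 UMIs. These transcripts do not show that the cells were derived from monocytes, and the cells are called interferon-high after the rule that chose them.

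Genes outside the gate were compared between the kinds of cell with edgeR on UMI counts summed per mouse and kind. Of 10714 genes tested, 297 were higher and 18 lower in interferon-high cells at an adjusted p under 0.05, 2.94% in all, 2.77% higher and 0.168% lower. With the mouse as a replicate block, which pairs both libraries of the same animal, 780 were higher and 388 lower (7.28% and 3.62%), among them all 315 of the fit without it. Without unimmunized mouse 1 no gene passed (1187 at an unadjusted p under 0.05), and without unimmunized mouse 2, the mouse with 19 interferon-high cells, 92 passed. Against only the comparison cells without Nos2 or Saa3, 307 genes were higher and 26 lower. Within the immunized mice alone, as a contrast of the same fit, 116 genes were higher and 0 lower (1.08%), and with the block 427 were higher and 164 lower (5.52% in all). Because the gate was made of interferon-stimulated genes, a rise of other such genes describes the cells that were chosen and is not independent evidence of a response. Genes named below outside the rule in the methods are list members named because they passed, after their values were seen. All fold changes below are log2 and compare interferon-high with comparison cells, as the mean of both conditions.

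The 10 largest rises among genes that averaged 5 or more on the log2 CPM scale were all members of the lists of antiviral effectors and nucleic acid sensors. Isg15 was at 1115, 1915, 1190 and 1013 CPM in interferon-high cells and at 52.7, 82.5, 102 and 131 CPM in comparison cells, a log2 fold change of 3.92 (SE 0.24, adjusted p = 9.5e-05). The groups did not overlap, and the level in comparison cells was higher in the immunized mice. Ifi44, an interferon-induced protein, was at 86.7, 167, 61.1 and 75.8 CPM against 4.20, 10.3, 4.28 and 8.36 CPM, a log2 fold change of 3.90. Oas3, which makes the 2′-5′ oligoadenylates that activate RNase L, was at 270.4, 172, 142 and 86.6 CPM against 18.5, 15.8, 15.5 and 11.2 CPM, a log2 fold change of 3.48. Among interferon-high cells Oas3 was lowest in immunized mouse 2 and highest in unimmunized mouse 1. The others were the exonuclease gene Isg20 (log2 fold change 3.43), Phf11d (3.39), the Schlafen genes Slfn1 (3.08) and Slfn5 (2.70), and Ifi206 (2.95), Ifi204 (2.86) and Ifi213 (2.84) of the Ifi200 family. Members of the Schlafen and Ifi200 families are close paralogs, so reads may be split among them.

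**Figure D3:**
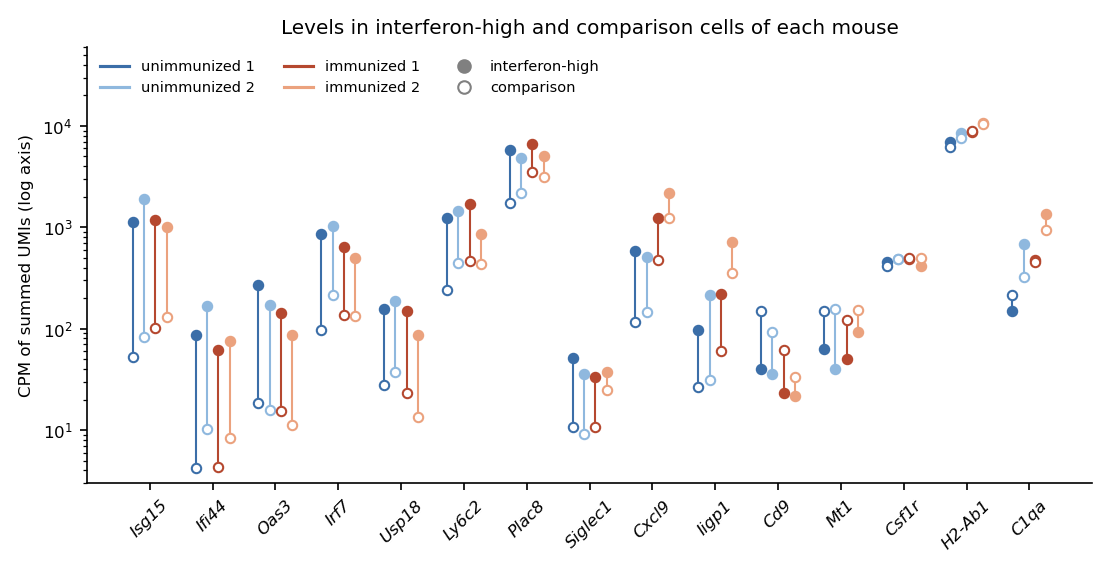
Levels in CPM of summed UMIs (log axis) of 15 genes in interferon-high cells (filled) and comparison cells (open) of each mouse, joined within a mouse. Isg15, Ifi44, Oas3, Irf7 and Usp18 lie far above the comparison cells in each mouse, the gaps of Siglec1 and Iigp1 are smallest in immunized mouse 2, Cd9 and Mt1 lie below, and H2-Ab1 overlaps. Csf1r is a gate gene and is shown as a description.

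Most antiviral effectors tested were higher. Of 60 genes in the list 56 were tested, and 46 were higher and 0 lower (53 and 1 with the replicate block), with a median log2 fold change of 1.93 against -0.05 over all genes tested. Ifitm3, which blocks the entry of viruses from endosomes, was at 5150, 5542, 4851 and 4097 CPM against 1296, 2285, 2232 and 2234 CPM (log2 fold change 1.34, adjusted p = 0.0066). All interferon-high libraries lay above all comparison libraries. Ifi27l2a (log2 fold change 1.30), Ms4a4c (1.78) and Ly6e (0.65), the other most abundant members, were also higher. Summed over the list, interferon-high cells held 27308, 29707, 24928 and 22456 CPM and comparison cells 7977, 11326, 10858 and 11664 CPM, so that these genes took a larger part of the transcripts in each mouse and the gap was smallest in immunized mouse 2.

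Most sensors of foreign nucleic acid were higher too. Of 22 tested, 14 were higher and 0 lower (18 and 0 with the block), with a median log2 fold change of 1.96. Ifi204, a DNA sensor, was at 683, 576, 559 and 448 CPM against 61.3, 67.3, 87.5 and 117 CPM (adjusted p = 9.3e-05). Mndal (log2 fold change 1.81) and Ifi209 (2.43), further Ifi200 genes, were higher, and so was Zbp1, a sensor of Z-form nucleic acid, at 383, 530.5, 434 and 449 CPM against 57.1, 71.6, 125 and 181 CPM (log2 fold change 2.23). The RNA sensors Ddx58 (RIG-I) and Ifih1 (MDA5), named after their values were seen, rose by 2.02 and 2.06. Toll-like receptor 7, Toll-like receptor 9 and their chaperone Unc93b1 did not pass without the block and passed with it.

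Among the factors that carry the interferon signal, 4 of the 15 tested members were higher and 0 lower (10 and 0 with the block), among them Irf7, Irf9 and Stat2, with a median log2 fold change of 0.38. Irf7 was at 865, 1036, 641 and 493 CPM against 97.8, 215, 137 and 133 CPM (log2 fold change 2.39, SE 0.25, adjusted p = 0.0013). Stat2 had a log2 fold change of 2.26 and Irf9 of 0.63.

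Some genes that restrain or otherwise regulate the response were also higher. Of 11 tested, Usp18, Trim25, Ptpn6, Adar and Nlrc5 passed (7 with the block). Usp18, the protease that removes ISG15 and blocks the type I receptor, was at 155, 187, 149 and 86.1 CPM against 27.7, 37.6, 23.2 and 13.4 CPM (log2 fold change 2.60, adjusted p = 9.4e-04). Ptpn6, the phosphatase SHP-1, rose by 0.51 and Nlrc5, the activator of MHC class I genes, by 0.92. None of the 6 interferon receptor genes passed in edgeR with or without the block (adjusted p of 0.37 or more without it and 0.18 or more with it), with a median log2 fold change of 0.03. Ifnar1, a chain of the type I receptor, was at 83.6, 65.7, 90.8 and 95.2 CPM against 83.0, 101, 94.2 and 106 CPM, with overlapping groups.

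Transcripts of interferons themselves were hardly detected. Of 20 interferon genes, 18 had no UMI in the 658 interferon-high cells, where 0 UMIs allow up to 0.352 CPM over the group. Ifnb1 had 3 UMIs in 3 cells, all in immunized mouse 1, and Ifng had 1 UMI. The comparison cells had no Ifnb1 UMI and 67 UMIs of Ifng in 28 cells. None of the ligand genes reached the filter for testing.

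Genes that interferon-gamma induces strongly were also tested. Of 18 interferon-gamma GTPases tested, 7 were higher and 0 lower (15 and 0 with the block), with a median log2 fold change of 1.31. Ifi47 was at 435, 419, 506 and 461 CPM against 67.8, 72.2, 98.7 and 182 CPM (log2 fold change 2.26, adjusted p = 4.1e-04), and Irgm1, which guards against parasites in vacuoles, rose by 1.90. Iigp1 was at 97.0, 217, 221 and 713 CPM against 26.8, 30.9, 60.7 and 353 CPM, a log2 fold change of 1.79 that passed with the block (adjusted p = 6.7e-08) and not without it (adjusted p = 0.21). Gbp2 had a log2 fold change of 1.25 and behaved alike (adjusted p = 2.0e-06 and 0.17). Both genes were higher in immunized mouse 2 than in any other mouse, in either kind of cell.

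Cxcl9, a chemokine induced mainly by interferon-gamma, was at 585, 510.3, 1226 and 2201 CPM in interferon-high cells and at 117, 145, 474 and 1225 CPM in comparison cells. Its log2 fold change was 1.60 (SE 0.31, adjusted p = 0.032), and the comparison library of immunized mouse 2 lay above both unimmunized interferon-high libraries. Of 17 chemokines tested, Cxcl9, Ccl2 and Ccl7 were higher and Ccl17 was lower (6 higher and 5 lower with the block). Ccl2 and Ccl7, which attract CCR2-bearing monocytes, rose by 2.39 and 2.73 from low levels. Ccl17, a product of dendritic cells, had 7 UMIs in all interferon-high cells, too few to give the size of its fall. Ccl5 was at 532, 515, 489.8 and 826 CPM against 749.6, 1113, 506 and 1937 CPM. It did not pass without the block (adjusted p = 0.37) and was called lower with it. Of 17 cytokines and death ligands tested, Il15 rose by 1.03 and Tnfsf10, the death ligand TRAIL, by 2.33, and the others did not pass (7 higher with the block).

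Antigen presentation genes of both classes were examined. Of 19 MHC class I genes tested, H2-T22, H2-T23 and Tapbp were higher, and 14 passed with the block, with a median log2 fold change of 0.45. H2-D1 had a log2 fold change of 0.39 (adjusted p = 0.23) and the immunoproteasome gene Psmb8 of 0.46 (adjusted p = 0.26), and neither passed without the block. Of 10 MHC class II genes none passed (with the block 1 was higher and 1 lower), with a median log2 fold change of 0.04. H2-Ab1 was at 6975, 8493, 8653 and 10566 CPM against 6241, 7572, 8904 and 10427 CPM, so that its level differed more between mice than between the kinds of cell.

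**Figure D4:**
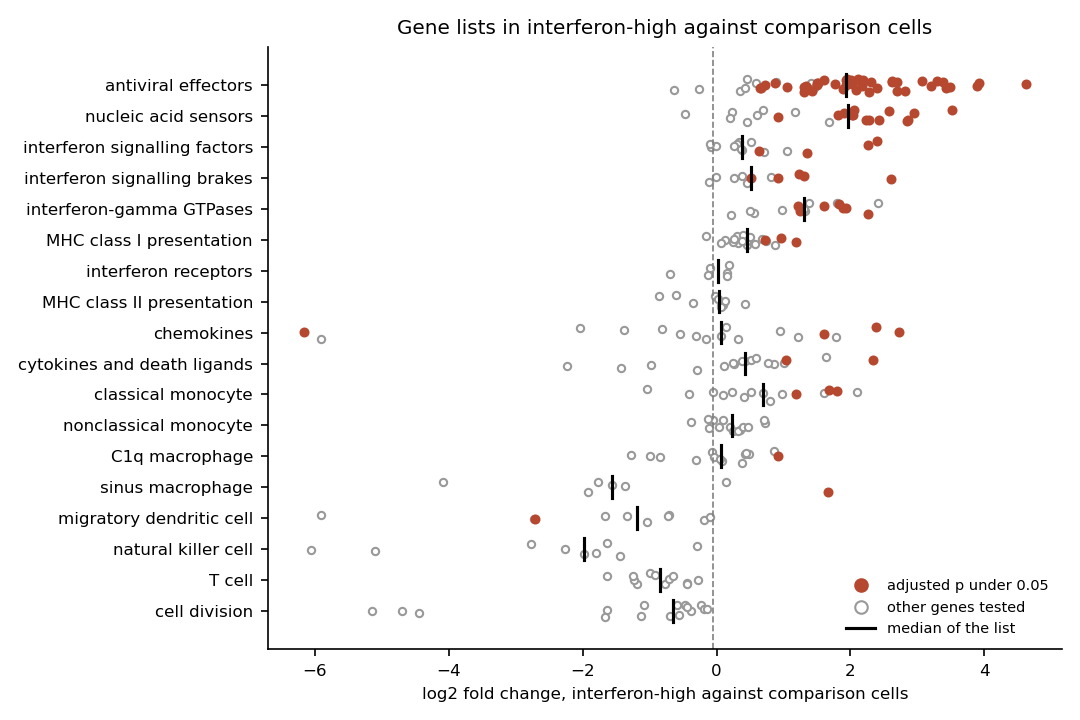
Log2 fold change of each tested gene of 18 lists in interferon-high against comparison cells, with genes at an adjusted p under 0.05 filled, the median of each list as a black bar and the median of all genes tested (-0.05) as a dashed line. Antiviral effectors and nucleic acid sensors lie to the right, with medians of 1.93 and 1.96, interferon receptors and MHC class II genes lie at the median of all genes, and natural killer cell, T cell and migratory dendritic cell genes lie to the left with 1 gene called.

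Some monocyte transcripts were higher in interferon-high cells. Of 15 classical monocyte genes, 3 were higher, among them Ly6c2 and Plac8, and 0 lower (7 and 1 with the block), with a median log2 fold change of 0.70. The median log2 ratio of the list was 0.97, 1.17, 0.59 and -0.11 in the 4 mice, 5 members were higher and 2 lower in each mouse, and in immunized mouse 2 the list summed to 28284 CPM against 30249 CPM in comparison cells. Among cells with at least 2 C1q genes its median log2 fold change was -0.08. Ly6c2 was at 1236, 1445, 1682 and 861 CPM against 241, 440.3, 465 and 429.8 CPM (log2 fold change 1.79, adjusted p = 0.0081). Plac8 rose by 1.19. Ly6c2 and Plac8 are themselves raised by interferon in some cells. Ccr2, the chemokine receptor of classical monocytes, was at 772, 616, 1054 and 692 CPM against 619, 572, 913 and 693 CPM and did not pass. No gene of the 14 nonclassical monocyte genes passed (4 higher with the block).

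Siglec1, which encodes CD169 and is itself interferon-stimulated, was at 51.6, 35.4, 33.5 and 37.0 CPM in interferon-high cells and at 10.7, 9.10, 10.7 and 24.9 CPM in comparison cells. The groups did not overlap, and the log2 fold change was 1.66 (SE 0.30, adjusted p = 0.022). A UMI of Siglec1 was found in 33.4% of interferon-high cells, 15.3% of comparison cells and 2.92% of the B cells. Of the other sinus macrophage genes, Marco was at 48.5, 25.3, 2.39 and 0.451 CPM against 56.9, 27.3, 30.3 and 1.29 CPM, and Cd209b at 101, 0, 1.71 and 0.677 CPM against 135, 52.2, 24.0 and 1.92 CPM. Neither passed without the block, and with it Marco, Cd209b, Timd4 and Cd5l were lower. Of 14 C1q macrophage genes only Axl, a receptor for apoptotic cells that interferon induces, was higher without the block (log2 fold change 0.91). With the block 3 genes of this list were higher and 1 lower. Axl was also the only one of 24 genes for the uptake of apoptotic cells that passed (3 higher and 1 lower with the block). Over all genes tested, 2.77% were higher without the block and 7.28% with it, so counts this small are not read as a result about either list. The Tomato transcript of the reporter was at 9.29, 5.05, 3.76 and 6.09 CPM against 3.62, 1.82, 5.31 and 5.96 CPM, with overlapping groups.

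Without the block 18 genes were lower in interferon-high cells, and with it 388. Cd9, a tetraspanin, was at 40.3, 35.4, 23.2 and 21.9 CPM against 150.5, 92.2, 61.9 and 33.3 CPM, and fell by 1.30 (adjusted p = 0.032). Mt1, a metallothionein, was at 63.0, 40.4, 49.9 and 92.5 CPM against 149, 155, 121 and 151 CPM and fell by 1.12 (adjusted p = 0.031), with no overlap of the groups. Mrpl38, Ppp1r14b, Bola3 and Tagln2 were the other falls that met the rule for naming, and fell by 0.84, 0.69, 0.66 and 0.62. Between 1 kind of cell and the other, 10.6% of all genes tested were higher in each mouse and 21.9% lower in each mouse. These shares count the direction of CPM ratios and are not a test. The median log2 ratio over all genes tested was itself negative, at -0.16, -0.15, -0.09 and -0.03 in the same order of mice. The interferon-high libraries were smaller, with 968896, 197933, 2927938 and 4434419 UMIs against 6905091, 1649045, 20339583 and 34924697 UMIs. The part of library size was not tested, so the shares do not show more falls than rises.

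Markers of other cell types were summed in both kinds of cell. The list of 10 natural killer cell genes summed to 104, 0, 50.9 and 8.79 CPM in interferon-high cells and to 493, 301.99, 129 and 43.5 CPM in comparison cells, with Gzma the most abundant. The 12 T cell genes summed to 399, 30.3, 63.5 and 28.0 CPM against 906, 367, 104 and 31.8 CPM, with Trbc2 the most abundant. Neither list had a gene past the threshold, and with the block 8 natural killer cell genes and 7 T cell genes were lower. Of 10 migratory dendritic cell genes Fscn1 was lower (7 with the block), and of 16 cell division genes none passed (6 lower with the block). Of 20 immediate early and stress genes none passed without the block. With it 7 were higher, among them Jun, Atf3 and Hspa1a, and 1 was lower. Neutrophil genes stood apart in single mice. S100a9 was at 219, 0, 95.6 and 2.71 CPM in interferon-high cells against 7.82, 3.03, 62.9 and 6.90 CPM, and 9.09% of the interferon-high cells of unimmunized mouse 1 had a UMI of it. The 12 neutrophil genes summed to 551, 126, 295 and 101 CPM against 87.2, 61.2, 234 and 113 CPM, with Csf3r the most abundant, and Ly6g was at 0 UMIs in interferon-high cells. Csf3r, the G-CSF receptor of neutrophils and monocytes, was the only one of 8 tested that was higher without the block (log2 fold change 0.69, adjusted p = 0.0092). With the block 4 of the 8 were higher and 0 lower, namely S100a8, S100a9, Retnlg and Csf3r. The part of these other transcripts in the gene counts was not tested, except that 327 genes passed when all cells with a B or T cell UMI were left out.

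Both kinds were also restricted to like cells. Among cells with Ly6c2 and at most 1 C1q gene, 212 genes were higher and 5 lower of 9227 tested (2.3% and 0.0542%, 2.35% in all), and 44 of 56 antiviral effectors were among the higher ones, with a median log2 fold change of 1.82. Among cells with at least 2 C1q genes, where unimmunized mouse 2 had 4 interferon-high cells and did not enter the fit, 49 were higher and 1 lower of 9493 tested (0.516% and 0.0105%, 0.527% in all), and 23 of 56 antiviral effectors were higher, with a median of 1.56. Of the 49 genes higher in C1q cells, 48 were also higher in Ly6c2 cells. Isg15 had a log2 fold change of 3.64 and 3.24, and Siglec1 of 1.63 and 0.97, in Ly6c2 and C1q cells, and Siglec1 did not pass in C1q cells. These restrictions were added after the data had been seen.

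The antibodies were not used by the gate. Signals are mean centred log ratios, in which the log count of 1 antibody is taken relative to the mean over the 6 antibodies of the same cell. Ly-6C was higher in interferon-high cells of each mouse, at 2.76, 3.31, 3.39 and 3.07 against 1.67, 2.49, 2.55 and 2.76. The mean difference within mice was 0.76 ± 0.33 (SD, n = 4, higher in 4 of 4 mice, exact sign-flip p = 0.13, the smallest that 4 mice can give, and 0.25 adjusted over 6 antibodies). It was smallest in immunized mouse 2. Against comparison cells within the 10th to 90th percentile of interferon-high depth, the mean difference was 0.47 ± 0.31, higher in 4 of 4 mice. This range, 8238 to 18761 UMIs, was taken over the cells of all mice together, so depth was not matched within a mouse. In unimmunized mouse 1 it kept 324 of 873 comparison cells. Within cells with Ly6c2 and at most 1 C1q gene the mean difference was 0.41 ± 0.12, and within cells with at least 2 C1q genes 0.58 ± 0.31, again higher in 4 of 4 mice. In the C1q cells unimmunized mouse 2 rests on 4 interferon-high cells. In the Ly6c2 cells its median Ly-6C count was lower in interferon-high than in comparison cells (383 against 444.5), and that of each other mouse was higher.

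CD11c, an integrin of dendritic cells and some macrophages, was lower in each mouse, by 0.33 ± 0.18 on average (SD, n = 4, exact sign-flip p = 0.13, adjusted 0.25), and CD68 was lower in each mouse by 0.20 ± 0.14 (exact p = 0.13, adjusted 0.25). In a centred log ratio a higher Ly-6C signal lowers the values of the other antibodies. On log2 antibody counts CD11c was again lower in 4 of 4 mice (mean difference -0.43 ± 0.41), whereas CD68 was higher in unimmunized mouse 2 and lower in the other 3 mice (mean difference -0.23 ± 0.37, exact sign-flip p = 0.375). Among cells with Ly6c2 and at most 1 C1q gene CD11c was lower in 4 of 4 mice and CD68 in 3. Among cells with at least 2 C1q genes CD11c was lower in 3 of 4 mice and CD68 in 4, with unimmunized mouse 2 again at 4 interferon-high cells. Against the depth-limited comparison cells the CD68 difference was -0.01 and that of CD11c -0.48. The CD169 signal was 0.116, -0.362, -0.637 and -0.707 in interferon-high cells against 0.585, 0.084, -0.395 and -0.747 in comparison cells, lower in 3 of 4 mice (mean difference -0.28 ± 0.24, exact sign-flip p = 0.25, adjusted 0.30). Against the depth-limited comparison cells the difference was -0.07, and against those without Nos2 or Saa3 it was -0.30, lower in 4 of 4 mice. The antibody gave a median of 11 counts in interferon-high cells and 33 in comparison cells of unimmunized mouse 1, and 3 to 4 counts in the immunized mice. F4/80 differed by 0.10 ± 0.11 (exact p = 0.25) and Ly-6G, at a median of 1 count, by -0.05 ± 0.08 (exact p = 0.375).

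**Figure D5:**
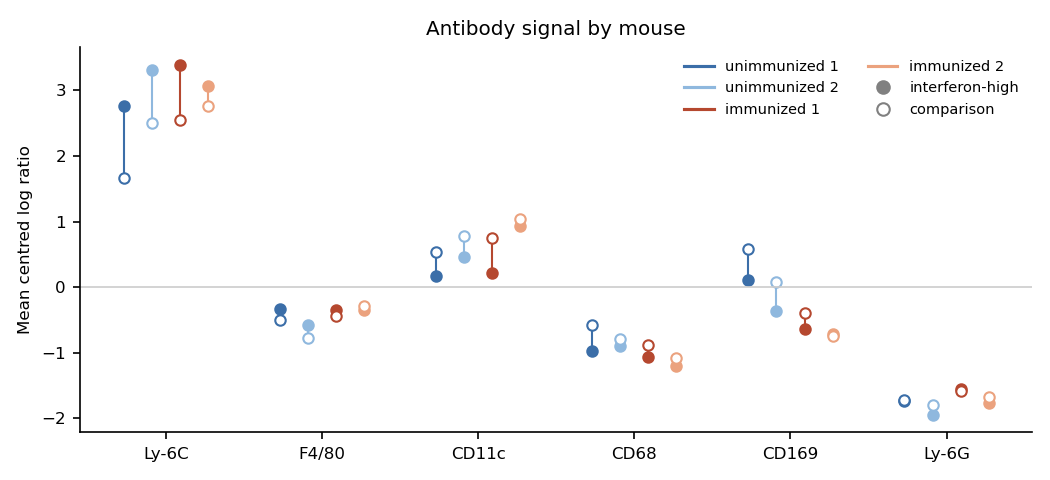
Mean centred log ratio of 6 antibodies in interferon-high cells (filled) and comparison cells (open) of each mouse, joined within a mouse. Ly-6C lies higher and CD11c and CD68 lie lower in the interferon-high cells of each of the 4 mice, and CD169 lies lower in 3 of 4.

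Immunized and unimmunized interferon-high cells were then compared. Of 10714 genes none passed in edgeR (0.0%), with 1164 at an unadjusted p under 0.05, and DESeq2 called 13 (0.121%). In comparison cells no gene passed either (1880 unadjusted), and DESeq2 called 306 (2.86%). Without immunized mouse 1, edgeR called 350 genes in interferon-high and 1369 in comparison cells. A lack of calls does not show that the conditions were alike.

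Antiviral effectors had a median log2 fold change of -0.16 with immunization in interferon-high cells and of 0.32 in comparison cells, and nucleic acid sensors of -0.23 and 0.30. Interferon-gamma GTPases had medians of 0.69 and 1.27, and MHC class II genes of 0.43 and 0.57, beside 0.02 and -0.02 over all genes tested. Cxcl9 had a log2 fold change with immunization of 1.74 in interferon-high cells (SE 0.44, adjusted p = 0.44, higher in both immunized mice than in both unimmunized mice) and of 2.84 in comparison cells. Cxcl9 was among the 13 genes of DESeq2, which also held the rises of Hspa8, Ifitm2 and Vim and the falls of Cxcr4, Grk3 and Sat1, named after their values were seen. Ly6a, which interferons raise on monocytes, was at 496, 1137, 861 and 1976 CPM in interferon-high cells and at 123, 362, 320 and 994 CPM in comparison cells. Its groups overlapped between the conditions, and between the kinds of cell its log2 fold change of 1.46 passed only with the block (adjusted p = 1.4e-09, 0.22 without it).

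Whether immunization acted differently in the kinds of cell was tested as an interaction. No gene passed in edgeR (363 at an unadjusted p under 0.05) or in DESeq2 (147 unadjusted). With the replicate block 11 genes passed, 2 higher (0.0187%) and 9 lower (0.084%), 0.103% in all. Among them, the gap between the kinds of cell was smaller in immunized mice for Isg15 and Zbp1, by 1.25 and 1.29 on the log2 scale. Their levels in interferon-high cells overlapped between the conditions, whereas comparison cells of both immunized mice held more of each than those of both unimmunized mice. The gate holds interferon-high cells to at least 4 detected interferon genes and comparison cells to at most 1, fewer cells met it after thinning, and the immunized cells were deeper. The part of the gate and of depth in this smaller gap was not tested.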

How the data were processed

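The authors mapped mRNA reads to the mm10 reference with Cell Ranger 4.0.0, combined both captures, counted hashtags and antibodies with CITE-seq-count, and deposited UMI counts per cell. Kept cells had at most 25% mitochondrial UMIs, a barcode sequence found in 1 capture, and 1 hashtag with at least 80% of the hashtag UMIs and at least 10 UMIs. Of 18662 barcodes, 1425 exceeded the mitochondrial limit and 1238 had no hashtag and antibody counts. The hashtag rule removes doublets of different mice only, and no doublet caller was run. Counts were summed per mouse and kind of cell and tested in edgeR 4.0.16 by quasi-likelihood with TMM factors, edgeR's filterByExpr on low counts and Benjamini-Hochberg adjustment over all genes tested, with 1 mean for each kind and condition. DESeq2 1.42.0 and the other settings were alternatives. The mouse was the replicate block because both libraries come from the same animal, and their deviations from the group means correlated (r = 0.303 in unimmunized and 0.685 in immunized mice, over 3698 genes). P-values measure the spread between these mice. Antibody differences and shares were tested by exact two-sided permutation over mice.

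Named genes were the 10 gate genes, the 10 largest rises and falls that passed, averaged 5 or more on the log2 CPM scale and had 1 direction in all mice fitted (215 rises and 6 falls qualified), the 5 largest of each direction for immunization and the interaction, the 4 most abundant members of each list, and Siglec1, Ly6c2, Ccr2, Irf7, Isg15, Ly6a, Cxcl9, Ifnar1, Ifnb1 and Tomato. A few genes are not reported here. The members and lists were chosen with earlier results of these data known. The fold-change script was tested on simulated data. Promoters came from RefSeq (GRCm38.p6).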

Additional observations from a re-analysis of the deposited data

Results flagged for a closer look

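The effect of immunization differed between interferon-high and comparison cells for 11 genes in the interaction with the replicate block, of which 10 are given here, and for none without it or in DESeq2. The log2 interaction is the change with immunization in interferon-high cells minus that in comparison cells. It was -1.25 for Isg15 and -1.29 for Zbp1, the interferon genes described above. It was -1.05 for Ms4a6d, which was at 454, 642, 767 and 670 CPM in interferon-high cells and at 142, 193, 436 and 457 CPM in comparison cells.

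The granulocyte genes S100a8 and S100a9 had values of -4.91 and -4.48, and Csf3r of -1.12. S100a8 was at 172, 0, 86.8 and 5.41 CPM in interferon-high cells, so that its level differed widely between mice of 1 condition. The value was -3.19 for Marco and -2.53 for the phosphatase gene Dusp1, which was at 66.1, 15.2, 9.56 and 10.8 CPM in interferon-high cells. It was 1.21 for S100a10. For H2-M2 the fitted value was 5.09. This gene was at 2.06, 0, 24.9 and 91.8 CPM in interferon-high cells and at 77.8, 29.7, 59.0 and 62.8 CPM in comparison cells. Its level in interferon-high cells of both unimmunized mice lay near 0, so 5.09 is not an exact size.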

How the results depend on the processing

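The difference in share of kept cells was 2.62 percentage points. It was 0.271 with cells thinned to 3000 UMIs (exact permutation p = 1), 1.14 with a gate of 5 genes, 1.51 without cells holding lymphocyte UMIs, 5.18 with a gate of 3 genes, 4.803 without the limit on Nos2 and Saa3, 2.48 to 2.77 without 1 mouse each, and -0.179 with Csf1r-positive cells as the denominator. On that denominator it was 1.35 with a gate of 3 genes, 1.82 without the limit on Nos2 and Saa3, -1.64 without cells holding lymphocyte UMIs, -1.21 thinned, -1.03 with a gate of 5 genes, and -1.09 to 0.734 without 1 mouse each. The count of 315 genes between the kinds of cell became 204 with a gate of 3 genes, 50 in C1q cells, 905 without a filter on low counts, 1168 with the replicate block, 116 for immunized mice alone, and 0 to 437 without 1 mouse each (0 without unimmunized mouse 1, 92 without unimmunized mouse 2). For immunization in interferon-high cells the count of 0 became 504 without the filter, 13 in DESeq2 and 0 to 350 without 1 mouse each. In comparison cells it became 131 in capture 1, 14 in capture 2, 135 with cells of 0 gate genes, 1506 without the filter, 306 in DESeq2 and 0 to 1369 without 1 mouse each. The interaction count of 0 became 30 without the filter, 11 with the replicate block and 0 to 15 without 1 mouse each. The causes were not tested.

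Between the kinds of cell, the F4/80 difference became -0.0075 in Ly6c2 cells, and that of Ly-6G 0.021 in capture 2, 0.036 against depth-limited comparison cells and 0.015 in Ly6c2 cells. For immunization in interferon-high cells, log2 antibody counts gave -0.50 for F4/80, -0.28 for CD11c, -0.38 for Ly-6C and -0.40 for Ly-6G, each positive as centred log ratios. Without 1 mouse each F4/80 ranged from -0.0074 to 0.229, CD11c from -0.093 to 0.624 and Ly-6C from -0.081 to 0.470. Of the 51 genes followed by name, all 1016 values under alternatives kept their sign, but 174 lost the call and 29 gained it. All 43 called genes were also called with the block. With 2 mice a condition and 19 interferon-high cells in unimmunized mouse 2, small changes with immunization could not be resolved.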

Other observations

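Rtp4 and Bst2, antiviral genes outside the gate chosen here after their values were seen, also varied with the number of gate genes. Over all mice Rtp4 went from 42.9 CPM in Csf1r-positive cells with none of the gate genes to 463 CPM in those with all 7, and Bst2, encoding tetherin, went from 266 to 863 CPM. Pooled likewise, Tnfsf10 was between 2.04 and 3.39 CPM with 0 to 3 gate genes and at 41.6 CPM with all 7.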
